A study of Homo sapiens with 2 samples.

Results

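The genes examined were 10 components of the Notch pathway in HCCLM3 cells: the ligand genes JAG1 and JAG2, the receptor genes NOTCH1, NOTCH2 and NOTCH3, the DNA-binding factor RBPJ, its coactivator MAML1, and the target genes HES1, HES4 and HEY1. Peaks of N6-methyladenosine (m6A) enrichment were attributed to a gene when the summit lay inside its RefSeq span on hg38, whichever gene the authors' deposited table named. By this rule 21 of the 39801 deposited peaks belonged to the 10 genes. HCCLM3 is a human hepatocellular carcinoma line of high metastatic capacity, and the cells carried the label of wild type. There was 1 library of RNA captured with the m6A antibody (RIP) and 1 library of input RNA, both from this line, with no treatment named and no replicate of either. The series concerns the coactivator CRTC2 and the m6A reader YTHDF2, and its m6A map shows which transcripts the antibody recovered above input. Every value below therefore describes this pair of libraries and has no replicate check, and no test between conditions was possible.

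Notch signalling passes between touching cells. A ligand of the Jagged or Delta type on one cell binds a Notch receptor on its neighbour, which is then cut by an ADAM protease and by gamma-secretase, and the released intracellular domain enters the nucleus. There it joins RBPJ, which otherwise holds target genes repressed, and a Mastermind coactivator, and genes of the HES and HEY families are switched on, whose products are themselves transcriptional repressors. In the liver the pathway is best known for the formation of bile ducts from progenitor cells, in which JAG1 and NOTCH2 are the leading pair. m6A is placed on nascent mRNA by the METTL3 complex, mainly around stop codons, in 3' UTRs and in long internal exons, and YTHDF2 binds it in the cytoplasm.

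Of the 10 genes, 8 held at least 1 peak, and NOTCH3 and HES4 held none. Over all 20037 protein-coding genes of the main chromosomes, 49.3% held a summit. Long genes hold summits more often, so spans were compared as well. Of the 3 members under 5 kb (HES1, HES4 and HEY1) 2 held a peak, against 19.9% of protein-coding genes of that length. Of the 5 members of 20 to 60 kb (JAG1, JAG2, NOTCH1, NOTCH3 and MAML1) 4 did, against 57.4%, and both members over 100 kb (NOTCH2 and RBPJ) did, against 70.7%. The genes numbered too few for these shares to set the members apart from other genes.

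The same 8 genes held a peak with a caller's q-value under 0.05 and one under 1e-5, thresholds that 39.0% and 28.5% of protein-coding genes met. A fold of at least 4 was reached in JAG2, RBPJ, MAML1, HES1 and HEY1, or 5 of the 10, against 30.9% of protein-coding genes. By peak, 13 of 21 had a q-value under 0.05 (48.8% of all peaks), 9 had one under 1e-5 (25.8% of all peaks) and 8 had a fold of at least 4 (33.9% of all peaks). The median fold of the 21 peaks was 3.53 and that of all peaks 3.33. Fold here is the authors' own value for each peak, RIP divided by input at its summit after a pseudocount of 1 was added to both.

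The depth behind the 21 folds was uneven. The number of RIP fragments under each summit, recovered from fold and p-value, ran from 2 to 233 with a median of 15.0, against a median of 9.0 over all peaks. Intervals in parentheses are exact 95% Poisson intervals on these fragments with the input level held fixed. They cover counting error only, since fragments without molecular identifiers need not be independent molecules. The input level is the number of input fragments that the caller expected at the summit. In a bulk library, fewer cells with a transcript and fewer copies per cell cannot be told apart.

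**Figure D1:**
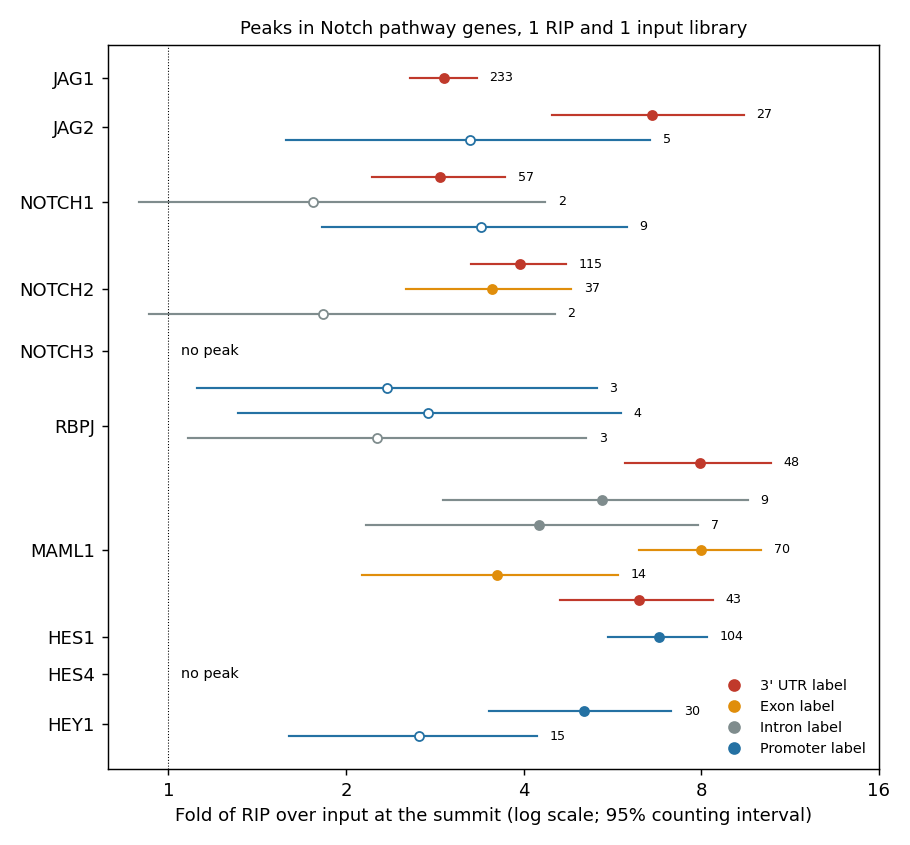
Fold of RIP over input (horizontal axis, log scale) for each of the 21 peaks, grouped by gene in the order of the pathway, with 95% counting intervals; numbers give RIP fragments, filled symbols a q-value under 0.05 and colours the deposited region label. MAML1 has the highest fold at 8.0, JAG1 has the narrowest interval on 233 fragments, and NOTCH3 and HES4 have no peak.

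JAG1, a membrane-bound ligand of Notch receptors, held a single peak, which lay in the 3' UTR (chromosome 20, 10639353 to 10639743). The summit had 233 RIP fragments over an input level of 50.3, the deepest of the 21 peaks on both counts. Only 15 of the 39801 peaks had more RIP fragments, the highest value being 280. Its fold of 2.93 (2.57 to 3.33) was nevertheless the lowest among the strongest peaks of the 8 genes, although NOTCH1 stood at 2.89 when its peak was chosen by p-value or had to have a q-value under 0.05. Compared with 120 3' UTR peaks of an input level within a factor of 1.5 of its own, whose median fold was 2.17, the JAG1 peak was higher than 85.0%. Among the strongest peaks of all 9881 peak-bearing protein-coding genes, only 18.4% had a lower fold. The rank of JAG1 thus depended on whether peaks of like input or all genes were the reference.

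JAG2, the second Jagged ligand, held 2 peaks at opposite ends of the gene. The 3' UTR peak, on chromosome 14 from 105142086 to 105143009, had 27 RIP fragments over an input level of 1.78 and a fold of 6.60 (4.47 to 9.44), with a q-value of 1.7e-09. Without the pseudocount the ratio would be 9.75. A second peak carried a promoter label, from 105167485 to 105167907, with its summit 1023 bases inside the gene. Only 5 fragments supported it, its fold was 3.25 (1.58 to 6.55) and its q-value 0.096. The 3' UTR interval of JAG2 lay above that of JAG1, whose input level was far higher.

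In the deposited table, which names the gene with the nearest transcript start, neither 3' UTR peak bore the ligand's name. The JAG1 peak was given to MIR6870 and the JAG2 peak to MIR6765, microRNA genes inside the ligand genes, and an intron peak of NOTCH1 was given to MIR4673 in the same way. No peak overlapped any of these 3 hairpins, and the summits lay 10050, 7971 and 12108 bases from them. The 5 mature microRNAs that the table thereby linked to Notch peaks are shown because their names stand in place of JAG1, JAG2 and NOTCH1. Sequences are from RefSeq (GRCh38.p14), with the seed, bases 2 to 8, in capitals.
hsa-miR-6870-5p (in JAG1): uGGGGGAGauggggguuga
hsa-miR-6870-3p (in JAG1): gCUCAUCCccaucuccuuucag
hsa-miR-6765-5p (in JAG2): gUGAGGCGgggccaggagggugugu
hsa-miR-6765-3p (in JAG2): uCACCUGGcuggcccgcccag
hsa-miR-4673 (in NOTCH1): uCCAGGCAggagccggacugga
The 5 microRNAs had 5 different seeds. Nothing was measured of the microRNAs themselves.

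NOTCH1 held 3 peaks. The one with most fragments lay in the 3' UTR on chromosome 9 from 136495596 to 136497346, with 57 RIP fragments over an input level of 12.0 and a fold of 2.89 (2.21 to 3.72). It was the widest of the 21 peaks, at 1751 bp, and the deposited table gave it to SEC16A, a neighbour. Its q-value was 5.8e-06, and the other NOTCH1 peaks had q-values of 0.2 and 1. The peak in intron 2 of 33 rested on 2 fragments, with a fold of 1.76 (0.892 to 4.35) whose interval included 1.

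The remaining NOTCH1 peak, under a promoter label, ran from 136545492 to 136546048, and its last base was the first transcribed base of the gene. It had 9 fragments and the highest fold of the gene, 3.39 (1.82 to 5.98), but a q-value of 0.2. RefSeq promoter windows, each 300 bases long with the last 50 transcribed, were examined for 9 of the members, leaving out HEY1. Of these 13 windows, that of NOTCH1 was the only one touched by a peak. The sequence around that edge is shown because the peak stops there. It lies on the minus strand at chr9:136546019-136546078 (GRCh38.p14), with 30 bases before the start in lower case and the first 30 transcribed bases in capitals.
NOTCH1 transcript start: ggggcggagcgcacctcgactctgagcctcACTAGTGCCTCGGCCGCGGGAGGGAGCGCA
The 50 transcribed bases of this window were 82.0% G or C. The letters of the m6A core were searched on the transcript strand as GGACT (its commonest form), as GGACA (last base changed), as GGACC (likewise), as GAACT (second base changed) and as GAACA (both changed). None occurred in these 50 bases, whereas 20.9% of 35116 promoter windows held at least 1 in theirs. The summit itself lay outside this window, 318 bases into the gene.

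NOTCH2, the receptor that pairs with JAG1 in the bile duct, had a pair of adjoining peaks at its end. The 3' UTR peak on chromosome 1 from 119914712 to 119915809 had 115 RIP fragments over an input level of 18.0 and a fold of 3.94 (3.26 to 4.71), with a q-value of 3.3e-19. A peak in exon 34 of 34, the last exon, began 381 bases away, from 119916191 to 119916586, with 37 fragments and a fold of 3.53 (2.53 to 4.82). The intervals of these peaks overlapped. The other peak, in intron 5 of 33, had 2 fragments, a fold of 1.83 (0.927 to 4.52) and a q-value of 1. All 3 were given in the deposited table to ADAM30, so that neither NOTCH2 nor JAG1 appeared among its gene names.

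NOTCH3, which encodes a receptor best known from vascular smooth muscle, had no summit within its 41958 bp. The absence of a peak gives no level of the transcript. Among the receptor genes with peaks, the 3' UTR intervals of NOTCH1 and NOTCH2 overlapped, and both genes had their deepest peak in the 3' UTR.

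**Figure D2:**
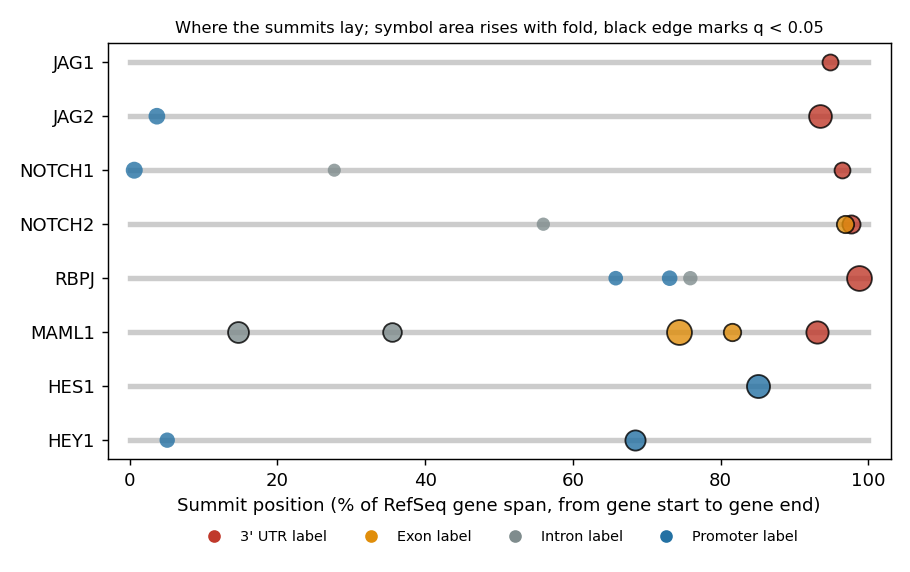
Position of each summit as a percentage of the RefSeq gene span, from gene start (0) to gene end (100), one line per gene; symbol area rises with fold, a black edge marks a q-value under 0.05 and colours give the deposited label. The 6 peaks labelled 3' UTR lie between 93.1% and 98.8% of the span, and the strong HES1 peak under a promoter label lies at 85.1%.

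RBPJ, the factor through which Notch receptors reach DNA, held 4 peaks that differed widely. The 3' UTR peak, on chromosome 4 from 26430748 to 26431368, had 48 RIP fragments over an input level of 3.0 and a fold of 7.95 (5.93 to 10.5), with a q-value of 2.3e-17. The deposited table gave it to CCKAR, whose start lay 59116 bases away. The other 3, from 26321836 to 26356034 and under promoter or intron labels, rested on 3 or 4 fragments each, with folds of 2.26 to 2.75 and q-values of 0.87 to 1. These were the only RBPJ peaks that the deposited table named as RBPJ, so the name there covered the weak peaks and not the strong one.

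MAML1, the Mastermind coactivator that completes the nuclear complex, held the most peaks of any member, and each of its 5 peaks had a q-value under 0.05. The highest fold of the 21 peaks, 8.0 (6.28 to 10.1), belonged to exon 2 of 5 (chromosome 5, 179765560 to 179766854), where 70 fragments stood over an input level of 4.74. This peak was 1295 bp wide. It was followed by a 3' UTR peak from 179773972 to 179775089, with 43 fragments and a fold of 6.28 (4.61 to 8.38), and between them a peak in exon 3 of 5 had 14 fragments and a fold of 3.60 (2.13 to 5.79). The intervals of the exon 2 and exon 3 peaks did not overlap.

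Intron 1 of MAML1 held the remaining peaks, from 179739152 to 179739561 with 9 fragments and a fold of 5.44 (2.92 to 9.60), and from 179748494 to 179748837 with 7 fragments and a fold of 4.24 (2.16 to 7.91). For the latter, 2 fragment numbers met the deposited values and the closer one is given. Their input levels were 0.246, the lowest of all 39801 peaks, and 0.296. At such levels the pseudocount weighs most, and without it the ratios would be 23.5 and 15.2. The intron peaks were the only MAML1 peaks that the deposited table named as MAML1, while the exon and 3' UTR peaks were given to LTC4S.

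HES1, the classical Notch target and a basic helix-loop-helix repressor, had the lowest q-value of the 21 peaks. On chromosome 3 from 194138126 to 194138582, it had 104 RIP fragments over an input level of 9.0, a fold of 6.77 (5.55 to 8.18) and a q-value of 1.1e-30. Its deposited label was promoter at 1 to 2 kb, since promoter labels take precedence and the gene is only 2585 bp long. The summit lay 2198 bases after the gene start and 386 bases before the gene end. Compared with 751 promoter-labelled peaks within a factor of 1.5 of its input level, whose median fold was 3.63, it was higher than 92.7%. That reference followed the deposited label, although the summit lay at 85.1% of the gene span. No comparison with 3' UTR or exon peaks was made for it.

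HES4, a close relative of HES1, had no summit in its 1134 bp. The deposited table named it for 1 peak, in intergenic sequence from 1005634 to 1006186 on chromosome 1, supported by 5 fragments; its fold was 3.38 (1.64 to 6.81) and its q-value 0.054. The table put it at -5537 bases from the HES4 start.

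A short sequence recognised by RBPJ was searched in promoters, and HES1, HES4 and RBPJ are named here because they held it. HES1 and HES4 are members as Notch target genes, so a match in them is not independent of their membership. The letters GTGGGAA, the core of the site that RBPJ recognises, were searched on both strands of the RefSeq promoter windows and occurred in 2194 of 35116 (6.25%). Among the members they occurred in 3 of 13 windows, which belonged to 3 of the 9 genes searched; HEY1 was not searched. The matches lay at 1 place in HES1, at 1 in HES4 and at 2 in 1 of the 5 windows of RBPJ itself. Among 8 other HES, HEY and feedback genes, HES5, HEY2 and HEYL had a match. The member stretches are shown, with the match in capitals. HES1 and HES4 carried it at 85 and 77 bases before the start, and HES5, outside the members, at 81. In the same orientation RBPJ carried it at 73 and HEY2 at 4. Matches on the other strand lay at 115 in RBPJ, 224 in HES5, 213 in HEY2 and 178 in HEYL. Any relation of the match to m6A peaks was not tested.
HES1, chr3:194136036-194136096, plus strand, 85 bases before the start: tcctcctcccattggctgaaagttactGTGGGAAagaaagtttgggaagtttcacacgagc
HES4, chr1:1000141-1000201, minus strand, 77 bases before the start: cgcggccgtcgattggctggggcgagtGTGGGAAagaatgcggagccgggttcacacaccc
RBPJ, chr4:26319646-26319706, plus strand, 73 bases before the start: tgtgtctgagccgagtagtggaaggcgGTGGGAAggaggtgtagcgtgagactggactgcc
RBPJ, chr4:26319604-26319664, plus strand, 115 bases before the start, match on the other strand: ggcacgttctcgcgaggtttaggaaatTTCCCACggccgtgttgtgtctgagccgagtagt
No peak touched these windows. A match of letters is a description and shows no binding, which was not measured here.

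Most of the peaks with the lowest q-values lay in 3' UTRs. Of the 21 peaks, 6 carried a 3' UTR label (28.6%, against 17.5% of all peaks outside intergenic sequence), 7 a promoter label (33.3% against 16.9%), 3 an exon label (14.3% against 18.3%) and 5 an intron label (23.8% against 45.9%). All 6 3' UTR peaks, in JAG1, JAG2, NOTCH1, NOTCH2, RBPJ and MAML1, had a q-value under 1e-5, against 53.5% of 3' UTR peaks in the whole list. The 3 other peaks past that threshold were MAML1 exon 2 and the promoter-labelled peaks of HES1 and HEY1 that lay in the later part of their genes.

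HEY1, a target repressor of the family related to HES, held 2 peaks on chromosome 8, both under promoter labels. The stronger (79764958 to 79765305) had 30 RIP fragments over an input level of 3.0 and a fold of 5.06 (3.50 to 7.12), with a q-value of 1.2e-07, and its summit lay 1189 bases before the gene end. The weaker, from 79767371 to 79767688, had 15 fragments over the same input level of 3.0, a fold of 2.66 (1.6 to 4.22) and a q-value of 0.34, with its summit 191 bases after the gene start. Their intervals overlapped. No transcript models were used here, so it was not determined whether the HES1 and HEY1 summits lay in coding sequence or in a 3' UTR.

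Ordered by the strongest peak of each gene, the folds ran from MAML1 (8.0) and RBPJ (7.95) through HES1 (6.77), JAG2 (6.60) and HEY1 (5.06) to NOTCH2 (3.94), NOTCH1 (3.39) and JAG1 (2.93). The intervals of each gene and its neighbour in this order overlapped. At a wider distance they separated: the lower bound of HES1, 5.55, lay above the upper bounds of NOTCH2, 4.71, and JAG1, 3.33, and so did that of RBPJ, 5.93. The median of the 8 values was 5.83, against 4.73 for the strongest peaks of the 9881 peak-bearing protein-coding genes. Input levels were unequal along this order, at 50.3 for JAG1 and 18.0 for NOTCH2 but 1.0 for NOTCH1, 9.0 for HES1, 4.74 for MAML1 and 3.0 for RBPJ, and their part in it was not tested.

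**Figure D3:**
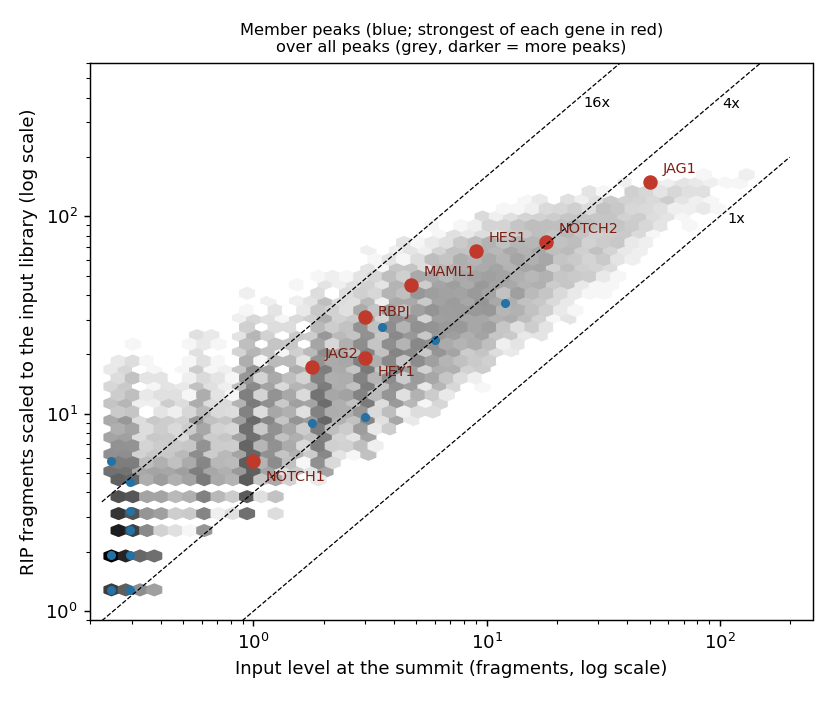
RIP fragments scaled to the size of the input library (vertical axis, log scale) against input level (horizontal axis, log scale) at each summit; grey hexagons hold all 39801 peaks, blue points the member peaks and red points the strongest peak of each member, and dashed lines mark ratios of 1, 4 and 16 before any pseudocount. JAG1 lies at the upper right, at an input level of 50.3, and several member peaks lie at the lowest input levels, on 2 to 9 fragments.

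The deposited gene names hid much of this pattern. Of the 21 peaks, 10 were named for the gene that held the summit and 11 for another gene: MIR6870, MIR6765, SEC16A, MIR4673, ADAM30, CCKAR or LTC4S. Each of the 6 3' UTR peaks was among the 11. No other RefSeq gene held any of the 21 summits, so overlapping genes did not blur the attribution.

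The rest of the pathway was described with 69 further genes. A summit lay in 46 of them (66.7%, against 49.3% of protein-coding genes), 36 held a peak with a q-value under 0.05 (52.2% against 39.0%) and 29 a peak with a fold of at least 4 (42.0% against 30.9%). These genes were longer than average, with a median span of 38911 bp against 24115 bp, and the list was not matched on length or expression. By role the counts were uneven, and no test of the unevenness was made. Ligand genes outside the members were mostly without a peak, whereas JAG1 and JAG2 each held one. Of 8, among them DLL1, DLL3 and DLL4, the non-canonical ligand gene DLK2 alone held one, with a fold of 5.63 (3.43 to 8.83). The spans of DLL1, DLL3 and DLL4 ran from 8873 to 9734 bp and that of DLK2 was 6281 bp. The list also held 2 genes over 100 kb, both without a peak. NOTCH4, the remaining receptor gene, held none.

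Genes that modify, cut or traffic the receptor are read here against 49.3% of all protein-coding genes and, for those over 100 kb, 70.7%. Of 5 glycosylation genes 3 did, led by POFUT1, the protein O-fucosyltransferase, at 5.74 (4.51 to 7.21). Of 9 cleavage genes 7 did, led by the protease gene ADAM17 at 9.23 (7.03 to 11.9) in its 3' UTR, where the summit also fell within IAH1. Of 14 genes for ubiquitin ligases and trafficking, 6 of them over 100 kb, 11 did, led by the endocytic kinase gene AAK1, with an intron peak of 9.86 (6.89 to 13.7).

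Among nuclear partners, 8 of 9 coactivator genes and 13 of 15 corepressor genes held a peak, beside 49.3% of all protein-coding genes. Of the 9 and 15 genes listed, with or without a peak, 5 and 7 spanned over 100 kb. At that length 70.7% of protein-coding genes held a peak. MAML2, a paralog of MAML1, had the highest fold of all the pathway genes examined, 18.8 (14.7 to 23.6) on 71 fragments, under a promoter label on chromosome 11 from 96341225 to 96342092. The deposited name of this peak was MIR1260B, so the promoter label refers to that gene and not to the MAML2 start. KDM5A, a histone demethylase that associates with RBPJ, led the corepressors with an exon peak of 8.70 (7.30 to 10.3). Of the 8 other HES, HEY and feedback genes 3 held a peak, beside 49.3% of all protein-coding genes. The share of protein-coding genes under 5 kb was 19.9%, and it applies only to the 5 of these 8 genes of that length. HES7, with a peak, was longer at 6043 bp. NRARP, a feedback inhibitor, was the only one of the 8 genes with a q-value under 0.05, at a fold of 4.63 (3.14 to 6.62).

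**Figure D4:**
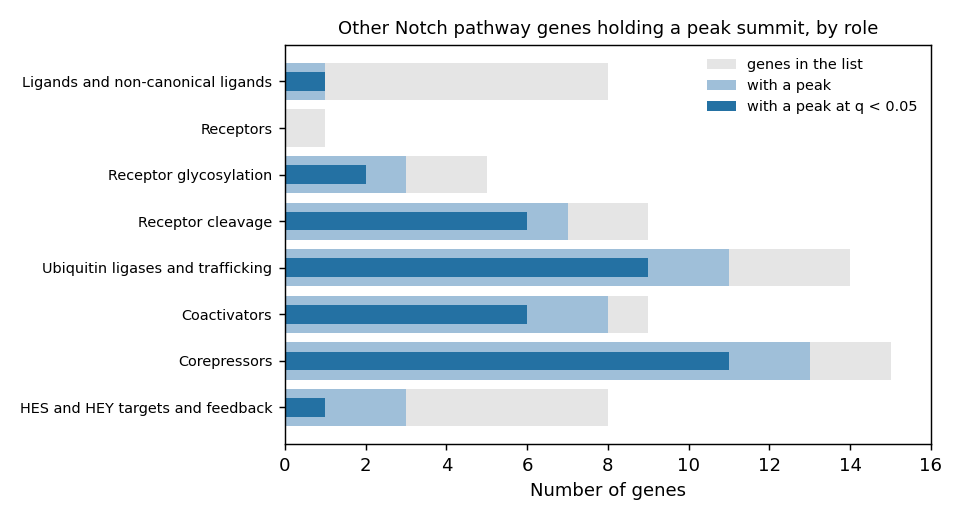
Number of other Notch pathway genes (horizontal axis) in each role list (grey), holding a peak summit (light blue) and holding one at a q-value under 0.05 (dark blue). Coactivators (8 of 9) and corepressors (13 of 15) are mostly filled, and ligands (1 of 8) are mostly empty. Over all protein-coding genes 49.3% held a summit, and the lists were not matched on length.

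The cell type could not be checked from levels, since the table gives recovery over input and not transcript abundance. Among hepatocyte and liver cancer markers, APOB, FGB and HNF4A held a peak, and ALB and AFP did not. Of the other markers, SOX9 (1 of 4 biliary and progenitor genes), PECAM1 (1 of 4 endothelial genes) and LUM (1 of 4 stromal genes) held one, and none of 3 immune genes did. The lowest input level over all 39801 peaks was 0.246.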

How the data were processed

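The submitters' processing notes name HISAT2, MACS2 and hg38 for the 1 RIP and 1 input library; for versions, settings and duplicate removal the sources used here say nothing. A single annotated peak table was deposited. Its fold is a linear ratio computed by the authors' caller, per the file headers. The damaged headers of the next columns were read as the authors' −log10 p-value and −log10 q-value, since 99.99% of deposited scores are 10 times the former rounded down. The lowest −log10 p-value in the list was 1.30, and 48.8% of its peaks had a q-value under 0.05. Holding a peak thus did not require a q-value under 0.05. Total depth is not stated.

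The RIP fragments (n) and input level (L) were solved from fold = (0.642n + 1)/(L + 1) and a Poisson tail for the p-value. For each whole number n, L was set from the fold, so only the p-value was a check. Its −log10 was met within 0.001 for 100% of 39801 peaks, and by 1 number only for 98.2%. The factor 0.642 was fitted to these data, as the value at which the largest share of sampled peaks was met. An unscaled model met 1.33% of 600 peaks. The scaled one recovered 100% of 1825 simulated peaks. These were made with the same formula and factor, so they check the solving and not the model. Python 3.11.15 with SciPy 1.17.1 was used.

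Spans and names came from RefSeq (GRCh38.p14), the same main chromosomes as hg38; all 69 further pathway genes matched, CIR1 by its older symbol. The genes and lists were chosen with earlier results of these data known. The rule for named genes took all 10 members with every peak, the gene of highest fold in each role list, and, for member peaks, the deposited name where it differed. Outside that rule, the deposited name of the MAML2 peak is given too. Alternatives were q-value thresholds, a fold of at least 4, at least 10 fragments, any overlap, deposited names, no intron labels, the strongest peak by p-value and no pseudocount, also with the strongest peak chosen anew (added after seeing the data).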

Additional observations from a re-analysis of the deposited data

How the results depend on the processing

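No paired analysis was possible because each group had 1 library and the results come from no test. The 8 member genes with a peak remained 8 with q-values under 0.05 or 1e-5, with at least 10 fragments, with any overlap and without intron labels. Requiring a fold of at least 4 left 5, and deposited names gave 7, where HES4 entered and JAG1 and NOTCH2 left. The 21 peaks became 13 at a q-value under 0.05, 9 under 1e-5, 8 with a fold of at least 4, 12 with at least 10 fragments, 11 by deposited names and 16 without intron labels. The 46 other pathway genes numbered 24 with a q-value under 1e-5 or 29 with a fold of at least 4, and ranged from 36 to 46 under the other alternatives. Fewer peaks enter by construction at each stricter threshold. The median strongest fold went from 5.83 to 6.92 without the pseudocount, and stayed 5.83 by p-value or when peaks needed a q-value under 0.05. With the same peaks kept, JAG2 moved beyond its counting interval, from 6.6 to 9.75, and the other 7 genes did not. When the strongest peak was chosen anew without the pseudocount, an alternative added after seeing the data, peaks on few fragments took over in JAG2 (10.8), NOTCH2 (5.21) and MAML1 (23.5), and the median was 6.92. For NOTCH1 the strongest peak by p-value was the 3' UTR peak, at 2.89 in place of 3.39, which is below JAG1 (2.93).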

Other observations

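The NOTCH2NL genes, near-identical partial copies of the NOTCH2 start that are known for their role in the human cortex, were looked at beside NOTCH2. NOTCH2NLB held 3 summits. The strongest lay in an exon (chromosome 1, 148607186 to 148607550); its fold was 7.48 (4.62 to 11.6), its q-value 6.7e-08 and its RIP fragments numbered 17. NOTCH2NLC held 1, in an intron (149447720 to 149448046) at a fold of 4.24 (2.16 to 7.91) and 7 fragments, while NOTCH2NLA and NOTCH2NLR held none. Short reads from sequence that the copies share cannot be told apart, so the attribution to one copy is uncertain. The summits of NOTCH2 with a q-value under 0.05 lay in its last exon and 3' UTR, which the partial copies lack. These genes were chosen after their values were seen.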
